A study of Mus musculus with 10 samples.

Results

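The genes described here are 7 parts of the T cell antigen receptor and of the first steps behind it, followed in cultured mouse natural killer cells (NKC) that lacked or kept the transcription factor Runx3. They are Trgv4, a variable segment of the T receptor gamma chain, the CD3 chains Cd3d, Cd3e, Cd3g and Cd247, the kinase Zap70 and the adaptor Lat. They were taken by symbol from the gene table of the array platform, and all 15 probe sets that carried a member symbol were kept, of which 10 reached a signal of log2 5 in at least 2 arrays. This gave 7 of the 18194 genes with a probe set of their own, and all 7 were among the 9391 genes tested. The genes were chosen by their roles and by KO and WT signals in IL-2, where Trgv4 and Lat had been seen to differ, so the IL-2 values of the members are given as a description, with no test.

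The 10 arrays measured RNA of splenic NKC of ICR mice, male or female and 6 weeks of age, each sample from a separate mouse. There were 3 Runx3 knockout (KO) and 3 wild-type (WT) cultures kept for 7 days in human IL-2 at 1000 u/ml, and 2 KO and 2 WT cultures kept for 7 days in mouse IL-15. NKC were enriched by removing other spleen cells and, in the methods, by a further sort on the surface marker DX5. The methods also state that nearly all cells carried the NK receptor NKp46 at the end of culture. The knockout was present in the whole animal, so the cells had also developed without Runx3. Values are log2 signals, so a difference of 1 is a doubling of the signal, and a probe set was taken as dim below log2 5.

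T cells carry an antigen receptor made of an alpha and a beta chain or of a gamma and a delta chain, and each chain is read from gene segments that are joined during development. These chains cannot signal alone. They are held by the CD3 delta, epsilon, gamma and zeta chains, whose tails hold tyrosine motifs called ITAMs. Kinases of the Src family phosphorylate the ITAMs, ZAP-70 docks on them, and ZAP-70 then phosphorylates LAT, the membrane scaffold from which calcium and MAP kinase signals start. NKC do not put the T receptor on their surface, but they use the zeta chain (Cd247), ZAP-70 and LAT behind their own activating receptors, among them NKp46.

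Array medians lay between log2 3.20 and 3.37. The cytokines differed in more than the culture: Xist, made from the inactive X chromosome, read 14.28 to 14.66 in the IL-15 arrays against 4.64 to 5.37 in the IL-2 arrays, and the Y-linked gene Eif2s3y read 2.34 to 2.43 in IL-15 against 7.31 to 9.17 in IL-2. The cytokine and this difference cannot be told apart. Runx3 itself, on its bright probe set, averaged 11.07 in KO and 11.65 in WT in IL-2, with a difference of -0.58 ± 0.76 (SD, n = 3 pairs), and 11.38 in KO and 12.48 in WT in IL-15, with a difference of -1.09 ± 0.09 (SD, n = 2 pairs). The place of this probe set relative to the deleted part is not given in the sources used here, so it does not check the genotype. Same-numbered KO and WT arrays of a cytokine added to the same sum in each of the 45101 probe sets, within 0.00014, so each KO array is set against its own WT array, and KO and WT groups have the same SD. For the same reason the mean of a cytokine has no replicate spread left, and levels in IL-15 and IL-2 are compared without a test.

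Trgv4 stood far higher in KO than in WT NKC in both cytokines. Its product is the variable part of a receptor gamma chain that a set of gamma delta T cells uses. On the probe set with the highest mean (1450521_a_at), the KO arrays in IL-2 read 11.93, 11.86 and 13, against 5.82, 5.89 and 4.75 in the WT arrays of the same pairs. The groups lay more than 5 log2 units apart, and the WT arrays were near the dim limit. The difference was 6.78 ± 1.28 (SD, n = 3 pairs), or 109.6-fold. In IL-15 the KO arrays read 11.57 and 11.11, against 3.98 and 4.43 in the WT arrays. Trgv4 rose in KO in IL-15 by 7.13 ± 0.65 (SD, n = 2 pairs), which is at least 80.8-fold because the WT arrays were dim (limma, adjusted p = 0.00812). Leaving out either IL-15 pair kept the difference at 6.67 or 7.59 but took the adjusted p to 0.104 or 0.0615, and without a filter on dim genes it was 0.116.

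Further probe sets for Trgv4 gave the same picture. On 1422189_x_at the KO arrays in IL-2 read 11.89, 11.92 and 12.28, against 5.25, 5.22 and 4.87 in WT, a difference of 6.92 ± 0.43 (SD, n = 3 pairs). The IL-15 arrays read 11.95 and 11.50 in KO against 4.37 and 4.82 in WT, which is at least 105.5-fold. A probe set that the platform table gives to both Trgv4 and Trgv2 (1422188_s_at) also separated the groups, at 13.44, 13.50 and 13.95 in KO against 7.66, 7.60 and 7.14 in WT in IL-2. The same probe set read 13.59 and 13.26 in KO against 6.04 and 6.37 in WT in IL-15, with differences that came to 6.16 ± 0.56 in IL-2 and to 7.22 ± 0.46 in IL-15. The last Trgv4 probe set (1427802_a_at) stayed dim in all 10 arrays, between 3.3 and 3.78. Trgv4, Trgv2 and Trgv1 all lie on chromosome 13, and probe sets marked _x_at or _s_at may match more than 1 transcript, so the signals of near-identical segments cannot be told apart.

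Other receptor segments followed in part. Of 14 probe sets named for other T receptor segments or constant regions, 5 reached log2 5 in at least 2 arrays and 9 stayed dim, between 1.96 and 4.19. Trgv1, another gamma variable segment, read 11.82, 12.18 and 12.34 in KO against 9.56, 9.20 and 9.04 in WT in IL-2. In IL-15 it read 13.33 and 13.20 in KO against 9.83 and 9.95 in WT. It was thus well above the dim limit in WT as well. Trgv1 rose in KO by 2.85 ± 0.53 in IL-2 (SD, n = 3 pairs, limma adjusted p = 0.00286) and by 3.37 ± 0.18 in IL-15 (SD, n = 2 pairs, limma adjusted p = 0.0135).

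Trav9d-3, an alpha chain variable segment, rose in KO as well. Its KO arrays in IL-2 read 9.40, 9.22 and 9.21, against 7.30, 7.48 and 7.49 in WT, a difference of 1.85 ± 0.21 (SD, n = 3 pairs, limma adjusted p = 0.00545). In IL-15 the KO arrays read 9.18 and 9.03 against 7.02 and 7.17 in WT, a difference of 2.02 ± 0.21 (SD, n = 2 pairs, limma adjusted p = 0.0364). These values are from 1426113_x_at. The further probe sets above the dim limit, 1452405_x_at and 1426168_a_at, differed by 1.72 and 1.94 in IL-2 and by 2.14 and 1.05 in IL-15. Those marked _x_at may match more than 1 transcript. The remaining Trav9d-3 probe sets, 1427766_at and 1427653_at, were dim in all arrays, between 1.97 and 2.89, and did not show the rise. Trbv1, a beta chain variable segment, was dim on 1433108_at, between 2.04 and 2.32. On 1452205_x_at, which may match more than 1 transcript, it was bright in every array and did not pass the test. Trbv1 read 14.74, 14.56 and 14.46 in KO against 13.66, 13.83 and 13.94 in WT in IL-2 (difference 0.78 ± 0.28, limma adjusted p = 0.0721), and 14.52 and 14.33 in KO against 14.31 and 14.50 in WT in IL-15 (difference 0.02 ± 0.28, limma adjusted p = 0.994). Without an IL-15 pair the adjusted p in IL-15 was 0.0974 to 0.203 for Trgv1 and 0.183 to 0.398 for Trav9d-3. Without 1 IL-2 pair the adjusted p in IL-15 was up to 0.0513 for Trgv1 and 0.0947 for Trav9d-3, while both were still called in IL-2.

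**Figure D1:**
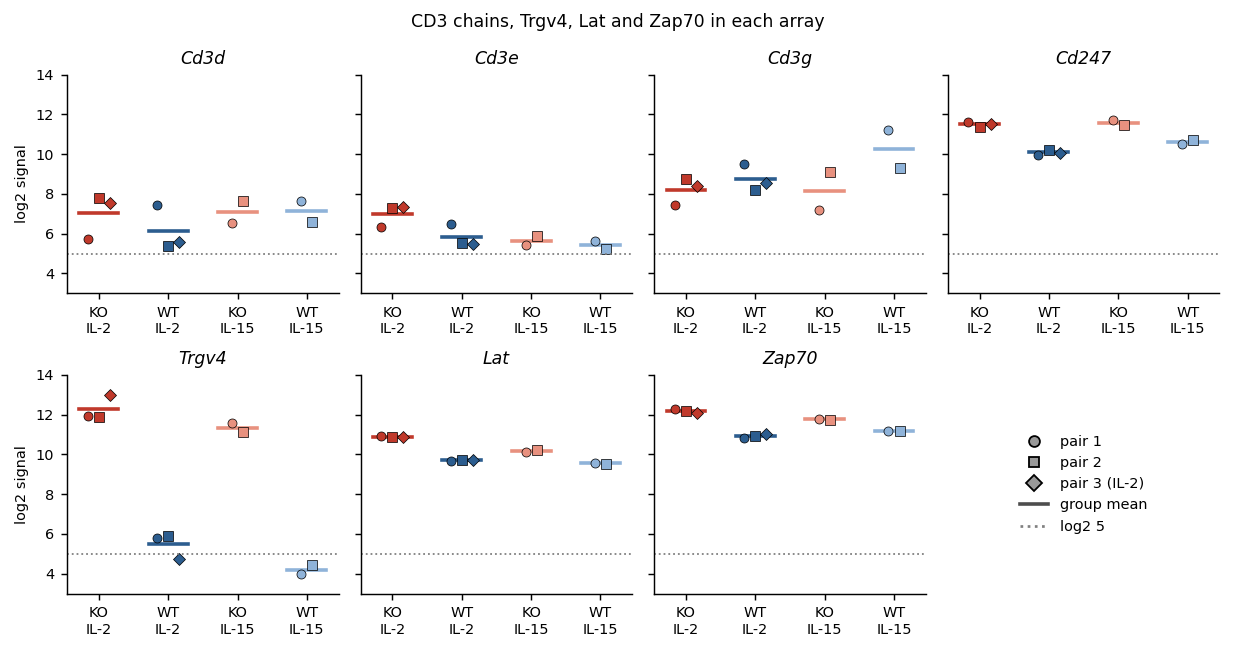
Log2 signal of the 7 genes in each of the 10 arrays, 1 point per array (its shape gives the pair), with the group mean as a bar, KO left of WT in each cytokine and the dim limit at log2 5 dotted. KO is above WT in every pair of either cytokine for Trgv4, Cd247, Zap70 and Lat. Pairs run both ways for Cd3d and Cd3e in each cytokine and for Cd3g in IL-2. How often all pairs share a sign over all genes was not counted.

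A gene was called where its adjusted p was under 0.05 and its change at least 1.5-fold. In IL-2 this rule took in 4 of the 7 members as higher in KO and 0 as lower, against 10.5% of all genes tested higher, 9.17% lower and 19.7% in either direction, and nothing is read from the members' count because IL-2 values helped to choose them. In IL-15, 1 of 7 was called higher (Trgv4), against a background of 0.458% of genes higher, 0.841% lower and 1.3% in either direction. The median of all genes was 0.11 in IL-2 and -0.01 in IL-15, and the differences given here are not adjusted for it. In RNA of whole cultures, fewer cells of a type and less RNA per cell cannot be told apart.

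The 3 CD3 chains that in T cells pair as epsilon with delta or gamma did not separate KO from WT in IL-2. Cd3e, the epsilon chain, read 6.33, 7.29 and 7.36 in KO against 6.51, 5.55 and 5.49 in WT in IL-2. It was lower in KO in pair 1, by 0.18, and higher in the others, with a mean difference of 1.14 ± 1.15 (SD, n = 3 pairs). In IL-15 it read 5.45 and 5.86 in KO against 5.63 and 5.22 in WT, and the difference of 0.23 ± 0.57 (SD, n = 2 pairs) did not pass the test (limma, adjusted p = 0.928). Pair 1 decides its value in IL-2, since the mean of the other pairs was 1.80.

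Cd3d, the delta chain, read 5.72, 7.80 and 7.56 in KO against 7.44, 5.36 and 5.59 in WT in IL-2. Pair 1 again ran the other way, at -1.72 against 2.44 and 1.97 in pairs 2 and 3, and the mean was 0.90 ± 2.28 (SD, n = 3 pairs). The IL-15 values were 6.56 and 7.62 in KO against 7.66 and 6.60 in WT, and the pairs gave -1.11 and 1.03. The mean in IL-15 was -0.04 ± 1.51 (SD, n = 2 pairs, limma adjusted p = 0.996).

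Cd3g, the gamma chain, was the CD3 chain with lower means in KO. It read 7.42, 8.75 and 8.38 in KO against 9.51, 8.18 and 8.55 in WT in IL-2, a difference of -0.56 ± 1.37 (SD, n = 3 pairs) with overlapping groups. In IL-15 it read 7.17 and 9.09 in KO against 11.22 and 9.31 in WT. Each pair was lower in KO there, but the pairs differed widely, at -4.05 and -0.22. The mean of -2.13 ± 2.71 (SD, n = 2 pairs) did not pass the test (limma, adjusted p = 0.40). Cd3g, Cd3d and Cd3e are neighbours on chromosome 9 and each has a single probe set here.

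Cd247, the zeta chain that NKC also use, was higher in KO in every pair. Its bright probe set (1426396_at) read 11.61, 11.35 and 11.51 in KO against 9.97, 10.23 and 10.08 in WT in IL-2. The difference was 1.40 ± 0.26 (SD, n = 3 pairs), or 2.63-fold. In IL-15 it read 11.70 and 11.47 in KO against 10.48 and 10.72 in WT. That difference of 0.98 ± 0.33 (SD, n = 2 pairs) did not pass the test (limma, adjusted p = 0.21, and 0.00671 without the pair block). The other 3 probe sets were dim or near dim. On 1420716_at (2.68 to 5.65) the difference was 0.56 ± 1.24 in IL-2 and 1.10 ± 1.08 in IL-15, on 1452539_a_at (3.06 to 5.46) 0.78 ± 0.39 and 1.13 ± 1.65, and 1426079_at lay between 1.94 and 2.10.

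Zap70, the kinase that docks on phosphorylated ITAMs, gave the same order. It read 12.27, 12.18 and 12.07 in KO against 10.84, 10.92 and 11.04 in WT in IL-2, a difference of 1.24 ± 0.20 (SD, n = 3 pairs), or 2.37-fold. The IL-15 arrays gave 11.77 and 11.75 in KO against 11.17 and 11.19 in WT. Each pair was higher in KO, and the difference of 0.58 ± 0.03 (SD, n = 2 pairs) was smaller than in IL-2 and did not pass the test (limma, adjusted p = 0.46). A further bright probe set (1440178_x_at) differed by 0.93 ± 0.09 in IL-2 and 0.53 ± 0.32 in IL-15, and the last (1439749_at) was dim, between 4.12 and 4.52.

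Lat, the scaffold that ZAP-70 phosphorylates, had the smallest spread of pair differences of the 7 genes in IL-2. It read 10.91, 10.86 and 10.88 in KO against 9.69, 9.74 and 9.71 in WT, a difference of 1.17 ± 0.05 (SD, n = 3 pairs), or 2.25-fold. Its IL-15 values were 10.13 and 10.20 in KO against 9.58 and 9.51 in WT, and the difference of 0.62 ± 0.10 (SD, n = 2 pairs) did not pass the test (limma, adjusted p = 0.409, and 0.012 without the pair block).

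**Figure D2:**
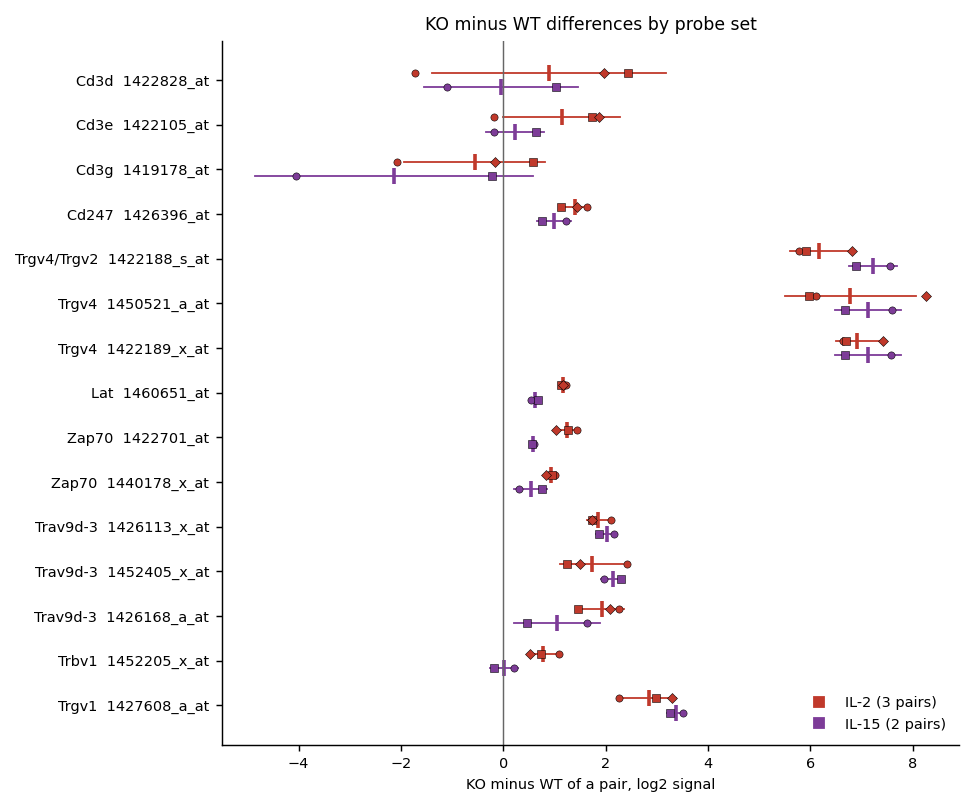
KO minus WT log2 difference of each pair, drawn as points, over a line that spans the mean ± SD, for the probe sets of the members and of other receptor segments that reached log2 5 in at least 2 arrays, in IL-2 (3 pairs) and IL-15 (2 pairs). The bright Trgv4 probe sets lie above 5 in every pair, Cd247, Zap70 and Lat lie above 0 in every pair, and the CD3 delta, epsilon and gamma chains fall on both sides of 0 in IL-2.

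Runx3 binds a short DNA motif that RUNX proteins share, and the promoters of the genes that were higher in KO in every pair are shown with one that was not. The windows run from 250 bases before to 50 bases after the RefSeq start (GRCm38.p6), written 5′ to 3′ along the gene. Capitals mark the motif in any of 4 spellings on either strand. The first spelling is TGTGGT. Another is TGTGGC. A further one is TGCGGT. The last one searched is TGCGGC. No matches overlap here, and a match on the opposite strand is printed as its reverse complement.
Lat, chr7:126369519-126369818, minus strand: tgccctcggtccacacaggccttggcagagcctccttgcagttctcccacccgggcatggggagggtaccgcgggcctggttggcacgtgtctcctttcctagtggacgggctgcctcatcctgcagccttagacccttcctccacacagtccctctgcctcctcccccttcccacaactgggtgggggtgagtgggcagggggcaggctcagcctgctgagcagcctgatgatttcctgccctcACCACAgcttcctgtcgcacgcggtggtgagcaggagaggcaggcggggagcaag
Cd247, chr1:165788431-165788730, plus strand: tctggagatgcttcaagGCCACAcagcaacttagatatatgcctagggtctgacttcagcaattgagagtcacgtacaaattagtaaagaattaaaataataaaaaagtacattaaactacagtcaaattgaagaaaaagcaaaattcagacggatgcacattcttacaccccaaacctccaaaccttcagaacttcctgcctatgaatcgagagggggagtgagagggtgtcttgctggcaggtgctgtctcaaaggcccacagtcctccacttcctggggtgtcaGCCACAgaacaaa
Zap70, first of its windows, chr1:36761548-36761847, plus strand: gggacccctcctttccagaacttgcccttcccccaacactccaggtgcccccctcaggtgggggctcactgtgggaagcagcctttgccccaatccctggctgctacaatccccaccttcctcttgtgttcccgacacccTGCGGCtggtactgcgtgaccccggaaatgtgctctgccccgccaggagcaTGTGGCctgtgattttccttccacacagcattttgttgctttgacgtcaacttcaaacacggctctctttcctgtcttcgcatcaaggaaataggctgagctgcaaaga
Cd3d, chr9:44981536-44981835, plus strand: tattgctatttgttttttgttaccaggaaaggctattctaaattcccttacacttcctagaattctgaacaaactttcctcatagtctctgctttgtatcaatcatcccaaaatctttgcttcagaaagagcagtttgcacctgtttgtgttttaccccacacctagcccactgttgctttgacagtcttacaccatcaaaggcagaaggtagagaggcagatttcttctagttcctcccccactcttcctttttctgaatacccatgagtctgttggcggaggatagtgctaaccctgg

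The Lat window held 1 match, at -5 from the start and read on the opposite strand. The Cd247 window held 2, at -233 and 38 bases from the start, and the first Zap70 window 2, at -110 and -59. The other Zap70 windows held 1 each, and those of Cd3d, Cd3e and Cd3g 0. In all, 5 of 8 windows of 6 members had a match, and 45.2% of 32851 windows of all genes had one. A match describes the letters only. Trgv4 had no window in the table.

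Between the cytokines the members moved by different amounts, with no test possible. Trgv4 averaged 11.34 in IL-15 and 12.26 in IL-2 in KO, and 4.21 in IL-15 and 5.49 in IL-2 in WT. Cd3e was lower in IL-15 in KO by more than 1 log2 unit (-1.34) and in WT by less (-0.42). Cd3g was higher in IL-15 in WT by 1.52 and moved by -0.05 in KO. Zap70 and Lat were lower in IL-15 in KO, at -0.41 and -0.72, while in WT they changed by 0.25 and -0.17. Cd247 differed by 0.10 in KO and 0.51 in WT, and Cd3d by 0.07 in KO and 1.0 in WT.

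The KO differences of the members in IL-15 and IL-2 are set side by side as a description, since IL-2 values helped to choose the genes. The difference of the effects, IL-15 minus IL-2, was -0.41 for Cd247, -0.66 for Zap70, -0.55 for Lat, -0.94 for Cd3d, -0.91 for Cd3e and -1.57 for Cd3g, and 0.35 for Trgv4. Over all genes the median of this difference was -0.14. None of the 9391 genes was called (0%) by limma, while 1106 had an unadjusted p under 0.05, and without the pair block 1157 genes were called.

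Across the 10 arrays, Trgv4 ran with Lat (Pearson r = 0.916), Zap70 (0.912) and Cd247 (0.896), and Zap70 with Lat (0.935) and Cd247 (0.926). Cd3g ran against these genes, with r between -0.466 and -0.608. These values describe arrays of 4 groups that share their genotype and cytokine differences. Differences between pairs had also been taken out of the deposited values, so the 10 arrays do not count as independent values. The tested genes with the pattern most like each member were Trav9d-3, Dnmt1 and Jpt1 for Trgv4 (r = 0.987, 0.984 and 0.981), Poglut1, Mag and Tspan32 for Cd247 (0.993, 0.991 and 0.99), Idh2, Rgs10 and Cbx2 for Zap70 (0.996, 0.992 and 0.991), and Cdt1, Foxm1 and Rnf26 for Lat (0.993, 0.992 and 0.992). Cdt1 licenses DNA replication and Foxm1 drives genes of cell division. For the CD3 chains they were Bsn, Ttyh2 and Tox2 for Cd3e (0.99, 0.988 and 0.986), Ptgr1, Mettl8 and Arrdc1 for Cd3d (0.903, 0.896 and 0.893), and Nsg2, Dusp22 and Marcks for Cd3g (0.959, 0.928 and 0.925).

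Genes of the wider pathway were called in both directions in IL-2. The counts below stand against 10.5% of all genes higher and 9.17% lower in IL-2. In IL-15, 0 of the 93 tested genes in the lists of ITAM partners, kinases and phosphatases, LAT and SLP-76 adaptors, downstream genes and coreceptors were called by limma, against 1.3% of all genes. At an unadjusted p under 0.05 there were 17 of the 93 in IL-15. Over all 9391 genes, 1269 had such a p together with a 1.5-fold change, which was not asked of the 17. The counts are thus not alike, and nothing is read from the 17. Without the pair block the counts higher and lower in IL-15 were 0 and 1 of the ITAM partners, 2 and 1 of the kinases and phosphatases, 4 and 4 of the adaptors, 5 and 0 downstream and 1 and 0 of the coreceptors. Over all 9391 genes they were 563 and 758 in that fit. These lists were drawn up with earlier results of the data known, and the differences below are KO minus WT in IL-2 over 3 pairs. Among the ITAM chains and receptors of NKC, 3 of 8 rose (37.5%), 0 fell and the list median was 0.45, against 0.11 over all genes. Ncr1, which encodes NKp46, rose by 2.11 ± 0.98 (limma, adjusted p = 0.017), the receptor Cd160 by 1.97 ± 1.08 and Syk, the kinase closest to ZAP-70, by 1.56 ± 0.71. The ITAM adaptors Fcer1g and Tyrobp, which NKC use beside the zeta chain, differed by -0.08 and -0.31 and did not pass the test.

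Of the receptor-proximal kinases and phosphatases, 3 of 17 rose (17.6%) and 5 fell (29.4%), with a median of -0.27. Those that rose include known brakes on the pathway: Ubash3a, a phosphatase-like protein of T cells (2.60 ± 0.40, limma adjusted p = 0.00781), Csk, which switches off Src family kinases (1.86 ± 0.34), and Ptpn6, the phosphatase SHP-1 (1.46 ± 0.75). Among those that fell were the ubiquitin ligase Cblb (-1.71 ± 0.87) and the phosphatases Ptprj (-1.67 ± 0.61) and Ptpn22 (-1.04 ± 0.45), which also restrain receptor signals, and the kinase Tec (-1.55 ± 0.31). Members of one known function thus stood on both sides. Fyn, a Src family kinase that acts on ITAMs, differed by 0.85 ± 0.63 and did not pass the test (limma, adjusted p = 0.0919).

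Among the partners of LAT and SLP-76, 8 of 30 rose (26.7%) and 2 fell (6.67%), with a median of 0.31. The adaptors Sla, which limits receptor levels in T cells, and Nck2, which links to the cytoskeleton, rose by 2.77 ± 0.61 and 2.08 ± 0.64. Sh2b3 rose by 1.90 ± 0.69. Sit1 was at least 2.66-fold higher in KO over a dim WT level, but it reached log2 5 in the KO arrays in IL-2 alone and was tested because it was high there, and without it 7 of 29 rose. Vav3 fell by 1.81 ± 1.02 and the adaptor Fyb fell by 1.57 ± 0.68 (differences of -1.81 and -1.57). SLP-76 itself (Lcp2) differed by 1.32 ± 0.75 and did not pass the test (limma, adjusted p = 0.0559).

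Further down, 5 of 29 genes rose (17.2%) and 2 fell (6.9%, against 9.17% of all genes), with a median of 0.39. They include the kinase Prkd2 (2.16 ± 0.54), the transcription factor Nfatc1 (1.81 ± 0.73), the calcium channel subunit Orai1 (1.59 ± 0.53) and Nfatc2ip (1.56 ± 0.03), which rose, and the calcium release channel Itpr3 (-1.78 ± 1.0) and Malt1 (-1.59 ± 0.86), which fell. Of 9 coreceptors and costimulators above the dim limit, Cd2, an adhesion receptor (2.15 ± 0.24), and Cd27 (1.97 ± 0.32) rose and 0 fell, while 7 more stayed dim. Without pair 1 the counts were 0 of 8 ITAM partners, 2 higher and 0 lower of 17 kinases and phosphatases, 3 higher and 2 lower of 30 adaptors, and 2 higher and 0 lower of 29 downstream genes. Without the pair block they were 4 and 0, 4 and 6, 13 and 5, and 10 and 5, against 2161 and 1642 over all 9391 genes. Without pair 2 the counts higher and lower were 2 and 0, 3 and 2, 4 and 0, and 2 and 1, and without pair 3 they were 2 and 0, 2 and 1, 7 and 0, and 6 and 1. Calls over all genes also fell without a pair, to the range given in the last section.

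**Figure D3:**
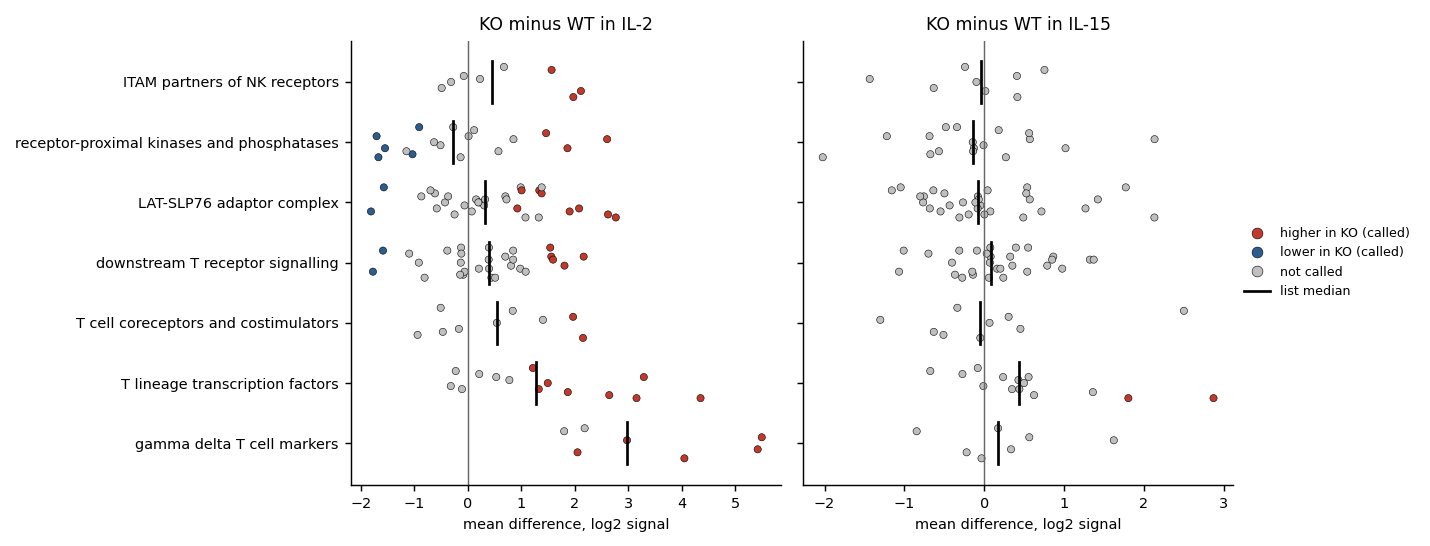
Mean KO minus WT log2 difference of each tested gene of 7 lists (rows), in IL-2 on the left and IL-15 on the right, 1 point per gene, with genes called higher in KO in red, called lower in blue, not called in grey, and the list median as a black line. Points spread to both sides of 0 in most lists, and the called genes in IL-15 are Tox and Bcl11b.

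The list of transcription factors of the T lineage was also drawn up with earlier results of the data known, so its counts are a description. Of its genes, 8 of 14 rose (57.1%, against 10.5% of all genes) and 0 fell in IL-2, with a median of 1.27. In IL-15 2 of 14 rose, against 0.458% of all genes. Tox, which T cells and NKC both need to develop, rose by 4.35 ± 0.52 in IL-2 and by 2.87 ± 1.02 in IL-15 (limma, adjusted p = 0.00158 and 0.0409). Bcl11b, which fixes T cell identity, rose by 3.15 ± 0.09 and by 1.80 ± 0.09 (limma, adjusted p = 0.00137 and 0.0426). Runx1, the close relative of Runx3, rose by 2.64 ± 1.13 in IL-2. Tox2 was at least 3.44-fold higher there over a dim WT mean, but its pairs differed widely, at 0.16, 5.07 and 4.63. In pair 1 it read 5.22 in KO and 5.05 in WT. Tox2 was tested because it was high in KO in IL-2, and without it 7 of 13 rose. The counts of this list in IL-2 were 3 without pair 1, 2 without pair 2 and 6 without pair 3. In IL-15 they were 0 without any 1 IL-2 pair. Calls over all genes also fell without a pair, to the ranges given in the last section.

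Marker lists of other cells, also drawn up with earlier results of the data known, stood beside these values as follows. Of 18 genes listed for gamma delta T cells, 10 had a probe set named here and 7 were above the dim limit. Of these, 4 (Zbtb16, Blk, Il17a and Sox4) were tested because they were high in the KO arrays in IL-2, so no count over the 7 is given for IL-2. The other 3 rose in KO in IL-2: Cd163l1 by 5.42 ± 0.49, 5830411N06Rik at least 15.1-fold and Maf by 2.98 ± 0.55. Blk, a Src family kinase, was at least 8.60-fold higher in KO over a dim WT level, and Sox4 at least 1.34-fold. The summed signal of the list was 13.30 to 13.39 in KO against 9.79 to 10.12 in WT in IL-2, and 13.28 to 13.66 in KO against 11.72 to 12.09 in WT in IL-15, on the log2 scale. The sum in IL-15 is nearly that of Maf alone, which read 13.25 and 13.63 in KO against 12.01 and 11.63 in WT. In IL-15 0 of 7 were called, against 1.3% of all genes, and the 4 named above were tested only because of their IL-2 values. Cd163l1 and 5830411N06Rik differed in IL-15 by 0.33 and -0.03. Blk differed there by 0.56 but was dim, at 3.18 and 3.51 in KO. Maf differed by 1.62 ± 0.54 in IL-15 (limma, adjusted p = 0.113).

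Of 14 genes listed for alpha beta T cells, 11 had a probe set and 9 of these, among them Cd4, Cd8a, Cd8b1, Cd5, Cd6 and Tcra, stayed dim in all arrays, between 1.76 and 4.11. The bright members Cd28 and Lef1 did not pass the test, and the summed signal was 11.46 to 12.13 in KO against 11.57 to 12.27 in WT in IL-2 and 12.78 to 12.97 in KO against 12.58 to 12.81 in WT in IL-15. Among 10 detected NK identity genes, Ncr1, Klre1 and Tbx21 rose and Prf1 fell in IL-2, and 0 were called in IL-15. In IL-15, 2 had an unadjusted p under 0.05 by limma, for which the share over all genes is not given here. Without the pair block 0 were called higher and 3 lower in IL-15, against 563 and 758 of all 9391 genes. Without pair 1 in IL-2 none of the 10 was called in IL-2, and calls over all genes also fell in that fit. Itga2, which encodes the DX5 antigen, was dim at 2.18 to 2.45. Ighm was the B cell gene above the dim limit and rose by 2.26 ± 0.16 in IL-2, with 7 B cell markers dim, and Cd14 was the myeloid gene of 6 that fell. The call of Ighm was lost without pair 1 in IL-2, and that of Cd14 without pair 1 or 3 in IL-2 or without either IL-15 pair. The part of other cells in the values of Trgv4 and the other members was not tested.

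**Figure D4:**
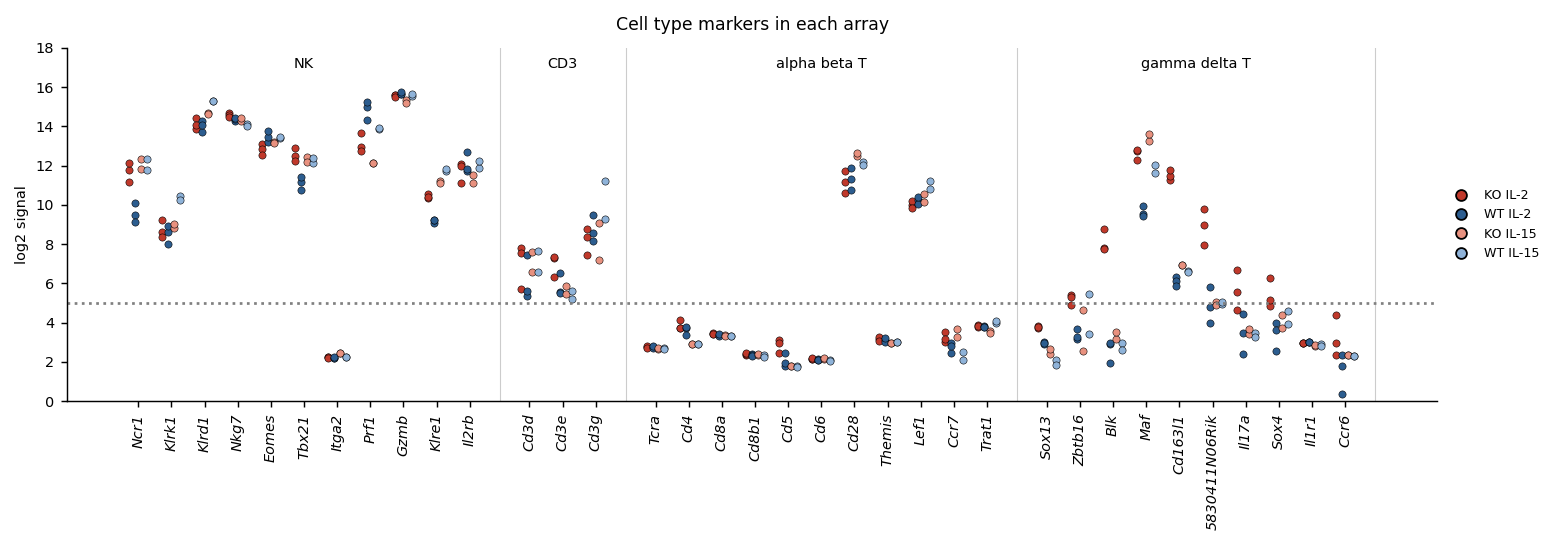
Log2 signal of NK, CD3, alpha beta T and gamma delta T marker genes in each array, 1 point per array, KO left of WT in each cytokine, with the dim limit at log2 5 dotted. Blk, Cd163l1 and 5830411N06Rik are higher in KO than in WT in IL-2 and close to WT in IL-15. Blk was tested because it was high in KO in IL-2 and is dim in IL-15. Maf is above WT in both cytokines, though not called in IL-15. The dim alpha beta markers, 9 in number, stay below the limit.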

How the data were processed

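RNA of 10 NKC cultures was hybridised to Affymetrix mouse genome arrays. The authors normalized the arrays with GC-RMA in Partek (versions not given in the sources used here), and the deposited values are log2 signals. KO and WT arrays of the same number have the same sum in each probe set (largest difference 0.00014 in IL-2 and 0.00013 in IL-15, against median differences of 0.193 and 0.1704 for crossed pairs), so differences between pairs had been taken out of the deposited values. No source used here describes this step. It leaves 3 residual degrees of freedom, which the fit used through the array number as a pair block, where 6 would be counted without it. The numbers come from the labels, which do not say what a pair shared.

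Of 45101 probe sets, 34958 carry 1 symbol in the platform annotation. Each gene was taken at its probe set of highest mean over the arrays and tested where at least 2 arrays reached log2 5. Group means of KO and WT were compared in each cytokine, and the KO effects between cytokines, with limma 3.58.1 (R 4.3.3) and Benjamini-Hochberg adjustment over all 9391 genes, after the fit was tested on simulated data. A call needed an adjusted p under 0.05 and a 1.5-fold change. A fold over a group whose mean was below log2 5 was set against log2 5 and is a lower bound. The array number and the SD over 3 or 2 pairs limit the precision. The p-values rest on the spread of KO minus WT differences between pairs, pooled over the cytokines, and not on the spread between cultures.

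The members and all lists were chosen with earlier results of these data known. Genes named were the members with every probe set, up to 4 called genes each way per list, the detected receptor segments, NK identity genes, Runx3 and the 3 genes most correlated with each member. Sox4, Fyn, Lcp2, Fcer1g and Tyrobp, and the marker genes named beside the called ones, were chosen after their values were seen. Promoter windows are from RefSeq (GRCm38.p6), and motifs were counted with Python 3.11.15. Alternatives were no pair block, median centring, quantile normalization, other filters, single or averaged probe sets, the methods' thresholds, and each replicate left out. List counts and receptor segments were also fitted without each pair and without the block, which was added after seeing the data.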

Additional observations from a re-analysis of the deposited data

How the results depend on the processing

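The called difference of Trgv4 in IL-15 kept its direction under every alternative listed here. Called genes in IL-2, IL-15 and the difference of the KO effects numbered 1851, 122 and 0. Without the replicate block they numbered 3803, 1321 and 1157, with 3 of the 7 members called in IL-15 and 1 in the difference. At the methods' thresholds they numbered 3391, 1269 and 1106, with 2 members called in IL-15. Without a filter on low values 842 genes were called in IL-2, 0 in IL-15 and 0 members in IL-15. Single probe sets gave 2923 calls in IL-2, the mean of a gene's probe sets 44 in IL-15, and a filter at log2 6 gave 4 in the difference. Leaving out 1 replicate gave 537 to 1525 calls in IL-2, 0 to 95 in IL-15 and 0 to 1 in the difference, and 0 to 1 members called in IL-15. The members within the call rule in IL-2 then numbered 2 to 4, which is a description only, since IL-2 values helped to choose them. The lowest counts came without pair 1 in both cytokines. Since the arrays of a pair carry 1 difference, leaving out either array gave the same fit. Calls in IL-15 were 43 higher and 79 lower, and 41 and 47 after quantile normalization. The number of arrays and the signal over background limit the precision. Signal near or below log2 5 was seen in the lowest arrays of Cd3d and Cd3e and in Trgv4 in WT. Cd3g lay at 7.17 or above and still had the widest SD of pair differences of the members in IL-15, at 2.71.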
